A study of Mus musculus with 9 samples.

Results

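Braf, Araf, Ksr1, Ksr2, Map2k1, Map2k2 and Mapk3 encode protein kinases, and kinase-related scaffolds, that pass the signal from RAS to ERK. They were taken by gene symbol, and 7 of the 18275 genes in the deposited table carry these names. All 7 passed the filter on low values that left 16196 genes for testing. Other core kinases of the cascade were not analysed here.

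RNA was measured in the hippocampus of adult male mice of strain C57BL/6N in 9 libraries. Nestin;BrafKE/+ mice gave 4 of these and Braf+/+ littermates gave 5. Nestin;BrafKE/+ mice are heterozygous for a Cre-dependent knock-in of the change labelled K499E, and the Nestin-Cre transgene switches the allele in neural stem cells, from which most neurons, astrocytes and oligodendrocytes descend. Microglia, endothelium and blood do not descend from these cells. Before Cre acts, the allele carries a cassette with wild-type Braf cDNA, and a value per gene does not separate the mutant allele from the wild-type one. Whether the Braf+/+ mice carried Nestin-Cre is not given in the sources used here. The library names carry 4 prefixes and were grouped into 3 series, with the numeric prefixes joined as series A. Nestin;BrafKE/+ replicate 1 belongs to series A, replicates 2 and 3 to B and replicate 4 to C. Of the Braf+/+ libraries, replicates 1, 2 and 3 are of series A, replicate 4 of B and replicate 5 of C. The values are normalised counts, adjusted by the authors for batches, and summed to between 19551312 and 20091532 per library. The depth in sequenced reads is unknown. All 10 hippocampal region markers were present, the lowest with a mean of 352 (Spink8).

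In the cascade, RAS bound to GTP brings RAF kinases to the membrane, where they pair and phosphorylate MEK, and MEK in turn phosphorylates ERK on a threonine and a tyrosine. BRAF is the RAF kinase with the highest basal activity and is abundant in neurons. KSR proteins resemble RAF kinases, bind MEK and ERK, and serve mainly as scaffolds and as partners in RAF pairs. In the hippocampus ERK is known for its role in lasting synaptic plasticity and in memory.

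The mutated codon and the exon around it are shown because the knock-in allele of the Nestin;BrafKE/+ mice differs from the wild-type allele here. In GRCm39 the lysine codon lies at chr6:39617405-39617407 on the minus strand, in a coding exon of 85 bases at chr6:39617385-39617469. It is exon 15 of the canonical transcript Braf-201, where the lysine is residue 536, and residue 484 of the shorter Braf-207. The numbering in K499E is that of the human protein. The codon was located as the only in-frame place where the coding sequence reads TTCAAA, the letters that the A-to-G change turns into the BstBI restriction site that marks the allele. The exon of the reference genome follows, 5′ to 3′ on the coding strand, with the lysine codon in capitals.

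Braf coding exon: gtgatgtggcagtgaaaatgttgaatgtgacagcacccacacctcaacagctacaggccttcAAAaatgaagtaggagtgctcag

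The comparison addresses whether the transcripts of the other cascade kinases are higher or lower in hippocampus in which a Braf allele is mutant. Of the 7 genes, 1 passed the threshold (Braf, lower), beside 2.88% of all genes tested in either direction and 1.36% lower. No gene of the 7 passed the threshold in the higher direction, in which 1.52% of all genes passed, and 0 of them were higher with an unadjusted p under 0.05. Fitted differences were negative in 5 of the 7 genes and positive in 2, with a median of -0.15 on the log2 scale beside 0.00033 for all genes tested. An unadjusted p under 0.05 was found for 4 genes (Braf, Ksr1, Ksr2 and Mapk3), all lower, beside 9.61% of all genes. Without Nestin;BrafKE/+ replicate 1, the only mutant library of series A, it was found for 1 (Braf), and the median of the 7 genes was -0.07. The 2 groups of libraries did not overlap in 2 genes, both lower, beside 8.13% of all genes, and 0 were higher without overlap, beside 7.62%. In 4 genes the difference was negative within all 3 series, beside 18.2% of all genes. The series may not be independent comparisons, since the values were adjusted for batches before deposit. Fewer cells of a type and less RNA per cell cannot be told apart in whole tissue.

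**Figure D1:**
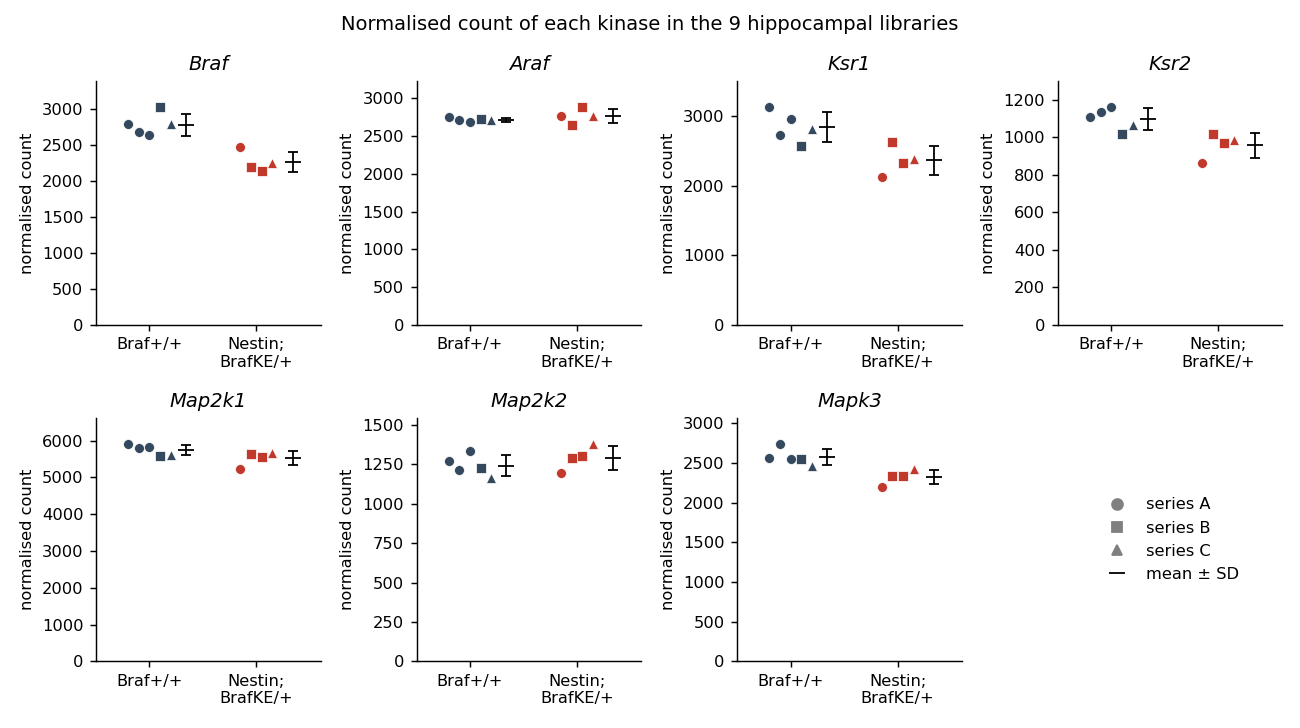
Normalised count (vertical axis, from 0) of each of the 7 kinase genes in the 5 Braf+/+ libraries (blue) and the 4 Nestin;BrafKE/+ libraries (red), with marker shape for the series of library names and bars for the mean ± SD. The groups are apart in Braf and Mapk3, and share part of their range in Araf, Ksr1, Ksr2, Map2k1 and Map2k2.

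Braf (ENSMUSG00000002413, chr6:39579870-39702629, minus strand) encodes the RAF kinase that carries the mutation. Its normalised count in Nestin;BrafKE/+ replicates 1 to 4 was 2469, 2189.5, 2144 and 2252. In Braf+/+ replicates 1 to 5 it was 2790.0, 2680.4, 2635, 3030.0 and 2795. All 4 mutant libraries lay below all 5 control libraries, and the closest approach was between the highest mutant library and the lowest control library, both of series A. The means were 2264 ± 144 (SD, n = 4) and 2786 ± 153 (SD, n = 5). Braf transcript was lower in Nestin;BrafKE/+, with a change of -18.8% (95% interval, -26.5 to -10.3), a log2 fold change of -0.30 (SE 0.07) and an adjusted p of 0.0378 in limma with Benjamini-Hochberg adjustment. The exact two-sided permutation p was 0.00794 over the 126 permutations of genotype and 0.0417 over the 24 permutations that keep the group sizes within each series, each the smallest that can be reached. The values were adjusted for batches before deposit, so libraries may not be exchangeable, which limits every permutation p given here. For scale, the groups did not overlap in either direction in 15.7% of all genes. On the log2 scale series A differed by -0.13, series B by -0.48 and series C by -0.31. The call held when Nestin;BrafKE/+ replicate 1 was left out, at an adjusted p of 0.0494, or Braf+/+ replicate 3, at 0.0441. It was lost without any other library, with adjusted p-values from 0.0540 without Braf+/+ replicate 2 to 0.203 without Braf+/+ replicate 4. The fold change was -0.20 without Braf+/+ replicate 4, the highest library. BRAF protein was not measured here, and the authors report no significant change of its level in the hippocampus of this genotype.

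Araf (ENSMUSG00000001127, chrX:20664012-20726772, plus strand) encodes the A-RAF kinase, which has lower basal activity than B-RAF and can pair with it. The Nestin;BrafKE/+ replicates had normalised counts of 2767, 2648, 2885 and 2770 (2769.8), and the Braf+/+ replicates 2748, 2708, 2686, 2722 and 2714. The control libraries lay within a narrow band, and the mutant libraries fell on both sides of it. The means were 2767 ± 97.1 (SD, n = 4) and 2716 ± 22.6 (SD, n = 5), with a log2 fold change of 0.03 (SE 0.05) and an adjusted p of 0.815 (limma). The 95% interval of the percent change ran from -5.31 to 9.51. The exact two-sided permutation p was 0.317 over all permutations and 0.5 within series.

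Ksr1 (ENSMUSG00000018334, chr11:78904266-79037308, minus strand) encodes the scaffold that brings MEK to RAF. Nestin;BrafKE/+ replicates 1 to 4 had normalised counts of 2120.3, 2632, 2334 and 2379, and Braf+/+ replicates 1 to 5 had 3131, 2735, 2955, 2570.0 and 2814. Of the mutant libraries 3 lay below all controls, and replicate 2 lay above Braf+/+ replicate 4 of the same series. The means were 2366 ± 209.8 (SD, n = 4) and 2841 ± 213 (SD, n = 5). The log2 fold change was -0.27 (SE 0.08, 95% interval -0.44 to -0.09), with an unadjusted p of 0.00731 and an adjusted p of 0.113 (limma), which missed the threshold. Series A showed a difference of -0.47, series B of -0.05 and series C of -0.24. The fold change was -0.13 (unadjusted p = 0.144 and adjusted p = 0.481 in limma) without Nestin;BrafKE/+ replicate 1, and -0.38 without Braf+/+ replicate 4.

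Ksr2 (ENSMUSG00000061578, chr5:117551832-117913068, plus strand) encodes the second scaffold, known for its expression in brain. Its normalised counts in Nestin;BrafKE/+ replicates 1 to 4 were 861, 1018.3, 969 and 984, and in Braf+/+ replicates 1 to 5 they were 1109, 1137, 1162, 1017.4 and 1067. The groups met at a single point, where Nestin;BrafKE/+ replicate 2 and Braf+/+ replicate 4, both of series B, were nearly equal. The means were 958 ± 67.8 (SD, n = 4) and 1098 ± 57.4 (SD, n = 5). The log2 fold change was -0.20 (SE 0.07, 95% interval -0.36 to -0.04) with an adjusted p of 0.181 (limma), and series A, B and C gave -0.40, -0.03 and -0.12. Without Nestin;BrafKE/+ replicate 1 it was -0.07 (adjusted p = 0.688, limma). For Ksr1 and for Ksr2 alike the exact two-sided permutation p was 0.0238 over all permutations and 0.0833 within series, and the difference was smallest in series B, the series in which that of Braf was largest in size.

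Map2k1 (ENSMUSG00000004936, chr9:64093048-64160992, minus strand) encodes MEK1. Nestin;BrafKE/+ replicates 1 to 4 had normalised counts of 5236, 5633, 5561 and 5659, and Braf+/+ replicates 1 to 5 had 5912, 5798, 5832, 5594 and 5611. Replicate 1 of the mutant group was the lowest library and the 3 controls of series A were the highest, while the remaining libraries of both genotypes lay together. The means were 5522 ± 195 (SD, n = 4) and 5749 ± 141 (SD, n = 5), with a log2 fold change of -0.06 (SE 0.05, 95% interval -0.16 to 0.05) and an adjusted p of 0.551 (limma). Series A showed a difference of -0.16, while those of series B (0.00069) and C (0.01) were near 0. The fold change turned to 0.0057 without Nestin;BrafKE/+ replicate 1.

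Map2k2 (ENSMUSG00000035027, chr10:80941723-80969809, plus strand) encodes MEK2, the second kinase that phosphorylates ERK. Its normalised counts were 1195, 1288, 1305 and 1379.9 in the mutant libraries and 1272, 1216, 1332, 1229 and 1161 in the controls. The groups overlapped, with the highest library in the mutant group and the lowest in the control group, both of series C. The means were 1292 ± 76.1 (SD, n = 4) and 1242 ± 64.0 (SD, n = 5). The log2 fold change was 0.06 (SE 0.07) with an adjusted p of 0.704 (limma), and the 95% interval of the percent change ran from -6.26 to 15.3. The sign differed between series, with -0.09 in A, 0.08 in B and 0.25 in C, and the fold change was -0.012 without either library of series C.

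Mapk3 (ENSMUSG00000063065, chr7:126358723-126364991, plus strand) encodes ERK1, the last kinase of the cascade. Nestin;BrafKE/+ replicates 1 to 4 had normalised counts of 2204, 2333 (2332.6), 2333 and 2424, and Braf+/+ replicates 1 to 5 had 2564, 2742, 2553, 2552 and 2469. All mutant libraries lay below all control libraries, by a narrow margin between the 2 libraries of series C. The means were 2323 ± 90.6 (SD, n = 4) and 2576 ± 100.5 (SD, n = 5). The log2 fold change was -0.15 (SE 0.05, 95% interval -0.27 to -0.03), with an unadjusted p of 0.0195 and an adjusted p of 0.174 (limma), which missed the threshold. The exact two-sided permutation p was 0.00794 over all permutations and 0.0417 within series, the smallest that can be reached, with the limit stated for Braf. By series it ran from -0.25 (A) through -0.13 (B) to -0.03 (C). Without Nestin;BrafKE/+ replicate 1 the fold change was -0.09 (unadjusted p = 0.214 and adjusted p = 0.560 in limma).

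**Figure D2:**
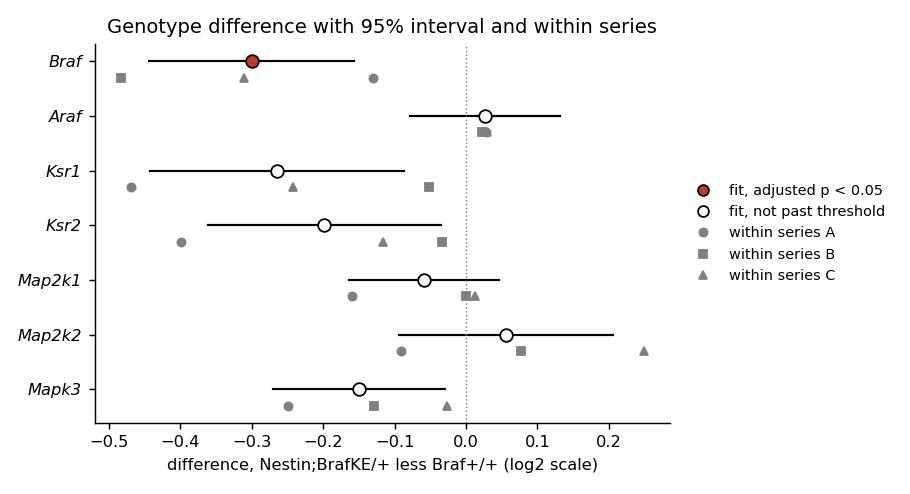
Fitted log2 difference of Nestin;BrafKE/+ from Braf+/+ for each of the 7 genes (circles, filled where the adjusted p passed the threshold) with its 95% interval (line), and the difference within each series (grey markers). Braf alone is filled, at -0.30, and the series order of Braf (smallest in A) differs from that of Ksr1, Ksr2 and Mapk3 (largest in size in A).

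For the 6 genes other than Braf, the upper end of the 95% interval of the percent change lay between -5.89 (Ksr1) and 15.3 (Map2k2), with a median of 0.61. The SD was 3.51% to 8.87% of the mean in the mutant group and 0.83% to 7.51% in the control group, and Araf in the controls had the lowest spread of all. Nestin;BrafKE/+ replicate 1 had the lowest value of all 9 libraries in 4 of the 7 genes (Ksr1, Ksr2, Map2k1 and Mapk3), and a series A control had the highest value in the same 4 genes. It is the only mutant library of that series, so library and genotype cannot be told apart there. The values were adjusted for batches before deposit, so the low mutant library and the high controls of that series may not be separate observations. In Braf the same mutant library was the highest of its group.

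Ratios within a library do not depend on how libraries were scaled, but can still depend on the batch adjustment before deposit. They are given as values with no test. The log2 ratio of Araf to Braf normalised counts was 0.16, 0.27, 0.43 and 0.30 in Nestin;BrafKE/+ replicates 1 to 4. In Braf+/+ replicates 1 to 5 it was -0.02, 0.01, 0.03, -0.15 and -0.04. The mutant libraries were all above the controls, so Araf counts exceeded Braf counts in each mutant library, whereas in the controls the counts of the genes were nearly equal. The group means were 0.29 ± 0.11 (SD, n = 4) and -0.04 ± 0.07 (SD, n = 5), and their difference of 0.33 stayed between 0.28 and 0.37 when each library was left out in turn. Series A, B and C gave 0.16, 0.51 and 0.34. The ratio uses the counts already given for both genes, with log2 fold changes of -0.30 for Braf and 0.03 for Araf, and is not a separate result. These are ratios of counts per gene, not of counts per length or of protein.

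The pairs of scaffolds and of MEK kinases kept ratios whose groups overlapped. The log2 ratio of Ksr2 to Ksr1 averaged -1.30 ± 0.05 (SD, n = 4) in the mutant and -1.37 ± 0.09 (SD, n = 5) in the control libraries. The difference of the group means was 0.07. The ratio of Map2k2 to Map2k1 averaged -2.10 ± 0.04 (SD, n = 4) and -2.21 ± 0.06 (SD, n = 5), a difference of 0.12 (0.115) that was positive in each series, at 0.07 in A, 0.08 in B and 0.24 in C. Only Braf+/+ replicate 3, at -2.13, reached into the range of the mutant libraries.

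**Figure D3:**
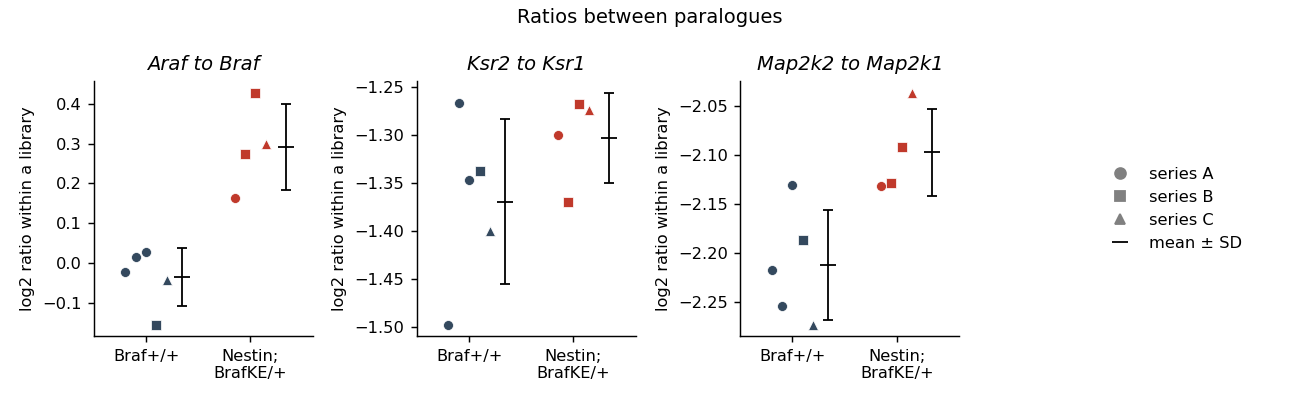
Log2 ratio of normalised counts within each library for Araf to Braf, Ksr2 to Ksr1 and Map2k2 to Map2k1, with blue for Braf+/+ and red for Nestin;BrafKE/+, marker shape for the series, bars for mean ± SD, and an axis of its own in each panel. The Araf to Braf ratio is apart between the groups, at 0.16 to 0.43 in the mutant and -0.15 to 0.03 in the control libraries.

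Levels were set side by side per kilobase of exon. In Braf+/+ hippocampus, over all exons of the annotation merged, Map2k1 had the highest normalised count per kilobase, at 1529 ± 37.4 (SD, n = 5). Mapk3 followed with 964 ± 37.6, Ksr1 with 396 ± 29.7 and Araf with 288 ± 2.39. The level of Braf was 147 ± 8.09 and that of Map2k2 139 ± 7.19, and the ranges of these neighbours overlapped (139 to 160.3 and 130.4 to 149.6). Ksr2 was the lowest with 71.5 ± 3.74. In Nestin;BrafKE/+ hippocampus the order was the same except that Map2k2, at 145 ± 8.55 (SD, n = 4), stood above Braf, at 119.8 ± 7.60, with no overlap between them. The order of the middle genes depends on the length used. Per kilobase of the canonical transcript, the controls had 1071 ± 8.89 for Araf, 574 ± 29.6 for Map2k2, 510.1 ± 38.3 for Ksr1 and 279.7 ± 15.4 for Braf, while Map2k1 and Mapk3 stayed highest and Ksr2 lowest. Of these neighbours, Map2k2 and Ksr1 overlapped.

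Most exon sequence of these genes is their own. The share of 31-base words found in another gene's transcripts ran from 0.18% (Ksr1) to 3.71% (Araf), and Map2k1 shared 0.81% of its words, all with Map2k2. Genes on the opposite strand overlap exons of 4 members. Ndufb2, a subunit of respiratory complex I, shares 870 bases (4.60%) with Braf, and its log2 fold change was -0.02 (adjusted p = 0.926, limma). Snapc5, a subunit of the complex that starts snRNA transcription, shares 1181 bases (31.4%) with Map2k1 and had 0.12 (adjusted p = 0.738, limma), and Syn1, which encodes the synaptic vesicle protein synapsin I, shares 23 bases with Araf and had -0.06 (adjusted p = 0.515, limma). The lncRNA Gm11201 shares 186 bases with Ksr1 and was not analysed here. The library kit keeps strand, but whether the quantification used it is not given in the sources used here.

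The genes whose pattern over the 9 libraries was nearest to that of Braf were searched among 13230 genes with a mean of at least 50, by the root mean square difference of log2 values less each gene's mean. The difference between genotypes is part of that pattern, so fold changes near that of Braf follow from the search. Rnf217, which encodes a ubiquitin ligase of the RING type, was nearest with 0.021, and its log2 fold change was -0.30 (adjusted p = 0.117, limma). Lrp10, a receptor of the LDL receptor family, followed with 0.032 and a fold change of -0.25 (adjusted p = 0.111), and Bmpr2, the type II receptor for bone morphogenetic proteins, with 0.034 and -0.24 (adjusted p = 0.0673). For scale, Braf itself varied by 0.17 about its own mean. Of the other cascade kinases, Mapk3 was nearest to Braf (0.13, rank 1647) and Map2k2 farthest (0.22, rank 7608).

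The genes around the kinases were read from 6 lists of the cascade, 103 genes of which 98 were tested. Among these, 42 had a positive and 56 a negative fold change, 26 (26.5%) had an unadjusted p under 0.05 beside 18.5% of all genes, and 1 passed the threshold (1.02%, beside 2.88% of all genes). The groups did not overlap in 16 genes that were lower (16.3%, beside 8.13% of all genes) and in 4 that were higher (4.08%, beside 7.62%). The median log2 fold change was -0.04.

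The gene that passed was Rap2a, of the list of RAS and RAP GTPases with the SHOC2 phosphatase, among which are the activators of RAF at the membrane. RAP2A is a small GTPase related to RAP1 and acts through kinases of the JNK branch. Its normalised count was 2165 ± 20.6 (SD, n = 4) in the mutant libraries and 2523 ± 73.3 (SD, n = 5) in the controls, with no overlap. The log2 fold change was -0.22 (SE 0.05) with an adjusted p of 0.0393 (limma), and series A, B and C gave -0.21, -0.23 and -0.24. When each of the 9 libraries was left out in turn the call held without Braf+/+ replicate 1 (adjusted p = 0.0496, limma) and was lost without any other, with adjusted p-values up to 0.142. Of the 16 genes in this list 7 were higher and 9 lower, from Rras2 at -0.28 (adjusted p = 0.132) to Rras at 0.24 (adjusted p = 0.288).

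In the other lists no gene passed the threshold. Proteins that bind RAF, with its chaperones and the 14-3-3 proteins that hold RAF in its closed or active form, were split evenly, 8 higher and 8 lower, with a median of -0.0029 and 2 with an unadjusted p under 0.05. They ranged from Rgs14, a scaffold of CA2 neurons that binds RAS and RAF (-0.28, adjusted p = 0.0934), to Cdc37, the chaperone that brings kinases to HSP90 (0.11, adjusted p = 0.362, but 0.02 without Braf+/+ replicate 4). Scaffolds and anchors of the ERK cascade were higher in 14 of 19 genes, with a median of 0.05. An unadjusted p under 0.05 was found for 6, split evenly between lower and higher. This list also holds Mapk8ip1, a scaffold of the JNK module, which is 1 of the 6 (0.15, unadjusted p = 0.0173 in limma). Iqgap1, a scaffold for RAF, MEK and ERK, was lowest at -0.39 (adjusted p = 0.101), and Iqgap3 highest at 0.51 (adjusted p = 0.599) at a mean of 10.4, turning to -0.19 without Braf+/+ replicate 4.

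The list of kinases activated by ERK also holds MAPKAPK kinases, which p38 kinases activate as well. It had 8 of 11 negative fold changes with a median of -0.10, from Mapkapk3 (-0.34, adjusted p = 0.486) to Rps6ka4, which encodes MSK2 (0.11, adjusted p = 0.550). Mapkapk3 was at -0.04 without Braf+/+ replicate 4, and Rps6ka4 at 0.04 without Nestin;BrafKE/+ replicate 4. Of the 11 genes 2 had an unadjusted p under 0.05. In the parallel MAP kinase modules (JNK, p38, ERK5 and atypical kinases) 12 of the 16 genes tested were negative, with a median of -0.13 and 6 with an unadjusted p under 0.05. They ran from Nlk, which encodes Nemo-like kinase (-0.33, adjusted p = 0.199), to Mapk11, which encodes p38 beta (0.39, adjusted p = 0.0698). The other MAP kinase kinase kinases were negative in 14 of 20 genes with a median of -0.08 and 5 with an unadjusted p under 0.05. Map3k15 was lowest at -0.79 (adjusted p = 0.120) and Map3k6 highest at 0.29 (adjusted p = 0.611), turning to -0.17 without Braf+/+ replicate 4.

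**Figure D4:**
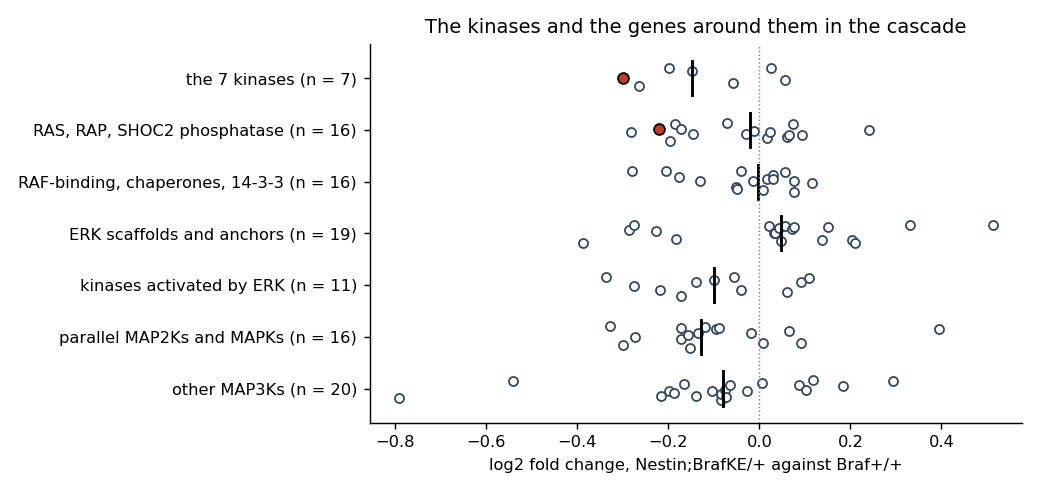
Log2 fold change of Nestin;BrafKE/+ against Braf+/+ (horizontal axis) for each tested gene of the 7 kinases and the 6 lists around them, with a black bar at the median of each row and filled points for genes past the adjusted threshold. The filled points are Braf at -0.30 and Rap2a at -0.22, and the list medians run from -0.13 to 0.05.

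Markers of hippocampal regions and of other cell types differed between the same libraries. Of the 10 region markers 3 passed the threshold in limma, beside 2.88% of all genes tested. Wfs1 at 0.61 (adjusted p = 0.00037) and Fibcd1 at 0.40 (adjusted p = 0.0182) mark CA1, and Dsp at -0.78 (adjusted p = 0.0106) marks the dentate gyrus. The other region markers lay between -0.08 (Zbtb20) and 0.15 (Bok). Among them were Prox1 (-0.05, adjusted p = 0.692) and C1ql2 (0.04, adjusted p = 0.925) of the dentate gyrus, and Spink8 of CA1 (0.08, adjusted p = 0.726). A list was summarised in each library by averaging its genes' log2 values after centring each gene on its mean. For the 10 astrocyte markers it was 0.07 to 0.14 in the mutant and -0.09 to -0.07 in the control libraries (8 of 10 genes higher, 1 past the threshold). For the 10 oligodendrocyte markers it was 0.10 to 0.26 and -0.33 to 0.03 (10 of 10 higher, 4 past the threshold), and for the 8 microglia markers 0.01 to 0.17 and -0.16 to 0.0066 (7 of 8 higher, 0 past the threshold, 3 with an unadjusted p under 0.05 in limma). Levels of the 6 excitatory neuron markers overlapped, at -0.05 to 0.05 and -0.12 to 0.05, with 1 gene past the threshold, and so did those of the 6 inhibitory neuron markers, at -0.02 to 0.13 and -0.11 to 0.03. The levels of the 7 endothelial markers (-0.08 to 0.07 and -0.15 to 0.20) overlapped as well. For the 5 blood markers they were -0.24 to 0.71 and -0.22 to -0.09, with Nestin;BrafKE/+ replicate 3 the lowest and the other mutant libraries above all controls (5 of 5 genes higher, 4 with an unadjusted p under 0.05 and 0 past the threshold in limma, and a level difference of 0.31, 0.44 and 0.46 in series A, B and C). Choroid plexus markers were high in Braf+/+ replicate 2 (3.11) and Braf+/+ replicate 4 (2.08), and lay between -2.66 and 0.24 in the other libraries. The part of these regions and cells in the values of the kinases was not tested, except that without both of those controls the fold change of Braf was -0.21 with an adjusted p of 0.242 (limma), and 0 of the 7 genes passed.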

How the data were processed

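Stranded mRNA libraries were made from the hippocampus, 1 library per mouse. The authors used Trim Galore for trimming, STAR for alignment to GRCm39 and Salmon for quantification, adjusted for batches that are not named in the sources used here, and scaled the result for DESeq2. These normalised counts make up the table as deposited by the authors. The signal deposited by the authors does not hold sequenced reads: the whole number behind mt-Co1 was 491938 in all 9 libraries. Precision therefore came from the spread between libraries. Groups came from the labels.

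On log2(value + 1), which slightly understates changes of low genes, lmFit and eBayes with a trend (limma 3.58.1, R 4.3.3) were applied to genes whose mean was 10 or more. The model held genotype and the series of library names. Tests were two-sided, adjusted by Benjamini-Hochberg over 16196 genes, threshold 0.05. Permutation tests over all permutations used the difference of mean log2 values. Those within series used the genotype coefficient of a least-squares fit with the series terms. Positions and lengths came from Gencode vM39 on GRCm39. The steps were tested on simulated data.

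The members, the 6 cascade lists, the 9 marker lists and the naming rule were chosen with earlier results of these data known. The rule names all members, list genes past the threshold, the lowest and highest gene of each cascade list, genes sharing exon positions with a member, and the 3 genes nearest to Braf. Alternatives changed the pseudocount (0.5, 8), the filter (none, 50), the scaling, the series term, the weights, the eBayes step and the libraries. The fit without Braf+/+ replicates 2 and 4 was added after the data were seen. Protein sequences were not used here.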

Additional observations from a re-analysis of the deposited data

How the results depend on the processing

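Over 22 alternatives the sign of the fold change held in all for Braf, Araf, Ksr1, Ksr2 and Mapk3. The number of genes called, 466, was 2260 without the series term, 165 with 4 name prefixes as the term, 258 with array quality weights, 72 with no trend in eBayes, 58 without both Braf+/+ replicates 2 and 4, and 42 to 371 with each library left out. Of the 7 kinases, 4 passed without the series term (with adjusted p-values of 0.0248 for Ksr1 at -0.26, 0.0411 for Ksr2 at -0.20 and 0.0314 for Mapk3 at -0.15), 0 passed with the prefixes, the weights, no trend or without both controls, and 0 to 1 with each library left out. An unadjusted p under 0.05, found for 4 of them, was found for 1 without Nestin;BrafKE/+ replicate 1, 2 with the prefixes, 3 with no trend or without both controls, and 4 under the other alternatives. For Braf the adjusted p was 0.0768 with the prefixes (-0.32), 0.0609 with the weights (-0.29), 0.148 with no trend (-0.30) and 0.242 without both controls (-0.21), and the fold change ran from -0.41 to -0.20 with each library left out. Of the list genes 22 passed without the series term (19 lower), 0 under each of the 4 settings just named, and 0 to 2 with each library left out. The cause of these changes was not tested. Directions turned for Map2k1 without Nestin;BrafKE/+ replicate 1 (0.0057, with a range of -0.091 to 0.0057 over the libraries left out), for Map2k2 without Nestin;BrafKE/+ replicate 4 or without Braf+/+ replicate 5 (-0.012, range -0.012 to 0.15), for Iqgap3 and Map3k6 without Braf+/+ replicate 4 (-0.19 and -0.17, ranges -0.19 to 0.98 and -0.17 to 0.72) or without both controls (-0.15 and -0.10), and for Mapkapk3 without both controls (0.032). Series C keeps no contrast once either of its libraries is left out, and values adjusted for batches before deposit limit what the series term can show. For each of the 7 kinases the fold change was nearly the same with and without that term. For Braf it was -0.3002 with it (SE 0.065) and -0.2999 without it (SE 0.051). The deposited values thus hold little difference between series for these genes. The fit without the term takes no account of the earlier adjustment, so its calls can be too many.

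No pairing of mice by replicate number was seen: deviations of same-numbered libraries from their group means correlated with r from -0.39 to 0.41, and 1 of 4 mutant libraries correlated best with its own number. Nestin;BrafKE/+ replicate 4 and Braf+/+ replicate 5, both of series C, had r = -0.997. The values were adjusted for batches before deposit, so these correlations cannot decide whether the numbers pair mice. With the replicate number as a block in place of the series term, 1405 genes, 1 of the 7 kinases (Braf, adjusted p = 0.0170) and 11 list genes (8 lower) passed.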
